A study of Mus musculus with 36 samples.

Results

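The 305 transcripts described here were higher in mouse cortical neurons after 6 h of potassium chloride (KCl) than in time-matched silenced neurons. After 1 h of KCl these transcripts were at less than 1.5 times their resting mean. They were chosen from the 115270 transcripts listed in each library by 4 conditions on CPM (a transcript's estimated counts divided by the sum of its library and multiplied by 1000000). The mean after 6 h of KCl in wild type (WT) had to be at least 5 CPM and at least 4 times the mean of the time-matched control. The lowest 6 h KCl library had to lie above the highest control library, and the mean after 1 h of KCl had to be under 1.5 times the mean at rest. The members were thus chosen on measured WT values, and these values are given below as a description, from which nothing is inferred. The members made up 1.45% of the 20996 transcripts that reached 5 CPM after 6 h of KCl.

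High extracellular KCl depolarises neurons and opens voltage-gated calcium channels, and the calcium that enters starts waves of transcription. The first wave needs no newly made protein and encodes many transcription factors, while genes of later waves often need those factors and include secreted peptides, growth factors and synaptic proteins that differ between types of neuron. ACTL6B is a neuron-specific subunit of BAF, a chromatin remodelling complex that moves nucleosomes and is also called SWI/SNF.

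Primary cortical neurons from E16.5 embryos were grown for 7 days in vitro and RNA was sequenced from 24 libraries, described by the submitters as biological replicates. Activity was silenced in all groups with tetrodotoxin (TTX), a sodium channel blocker, and APV, an NMDA receptor antagonist. The WT groups were 2 h of TTX/APV (rest, n = 5), 2 h of TTX/APV with 1 h of KCl (n = 5), 7 h of TTX/APV (the 7 h control, n = 4) and 7 h of TTX/APV with 6 h of KCl (n = 3). Neurons from Actl6b-/- embryos (KO) were measured after 2 h of TTX/APV only (n = 7), so the response of KO neurons to KCl is not described. Each library carries a code such as 4-3, and WT codes recur across treatments, but code 4-3 has no library at the later time.

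Library totals ranged from 5873349 to 8015063 estimated counts in the 17 libraries with 2 h of TTX/APV and from 3569516 to 4051922 in the 7 later ones, so the depth differed along with every comparison of a late group with rest. The files give transcript identifiers that were matched to no gene name here. Members are therefore called by their length in bases, and neither the cell type markers of these mixed cultures nor Actl6b itself was checked. Among the members, 3 pairs (of 7155, 2649 and 1582 bases) had the same length and the same counts in every library, which left 302 distinct profiles. Several members may be transcripts of one gene, which was not checked, so a count of members is not a count of genes. The WT library coded 4-3 stood above the other WT libraries at rest and after 1 h of KCl for many members, so summed values of both groups are given with and without it. In whole cultures, a change in RNA per cell and a change in the number of cells that make it cannot be told apart.

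The summed level of the members shows the pattern for which they were chosen. They held 1.34%, 1.41% and 1.17% of all counts in the 6 h KCl libraries, against 0.218%, 0.211%, 0.213% and 0.229% in the 7 h controls. At rest in WT they held 0.417%, 0.382%, 0.466%, 0.612% and 0.425%, and after 1 h of KCl 0.476%, 0.405%, 0.451%, 0.595% and 0.439%. The 1 h libraries lay within the range of the resting libraries, and the 7 h controls lay below all of them. The group means were 0.460% ± 0.0896 (SD, n = 5) at rest, 0.473% ± 0.0725 (n = 5) after 1 h of KCl, 0.218% ± 0.00784 (n = 4) in the 7 h control and 1.31% ± 0.122 (n = 3) after 6 h of KCl. In KO neurons at rest the share ran from 0.491% to 0.790%, with a median of 0.615% and a mean of 0.620% ± 0.106 (n = 7).

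**Figure D1:**
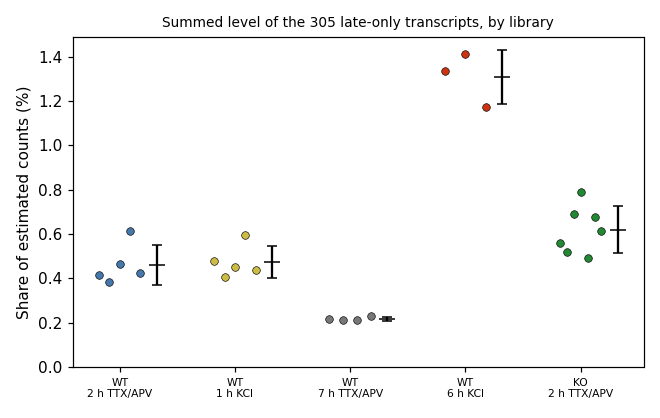
Summed share of all estimated counts (percent) held by the 305 members in each library, by group; points are libraries, and the bar beside them is the mean with its SD. The 3 libraries with 6 h of KCl sit between 1.17% and 1.41%, the 7 h controls near 0.218%, and the KO libraries between 0.491% and 0.790%.

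The library coded 4-3 was the highest WT library at rest and after 1 h of KCl. It had the highest of the 5 resting levels for 131 members (43.0%), against 21.6% of the 20996 transcripts with at least 5 CPM after 6 h of KCl, and the highest 1 h level for 109 members (35.7%, against 22.7%). Without it the resting share was 0.423% ± 0.0343, with a highest value of 0.466%, and the 1 h share was 0.443% ± 0.0294 (n = 4). Of the 7 KO libraries, 4 lay above every WT resting library and 7 lay above those other than 4-3.

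Levels after 6 h of KCl ranged from 5.03 to 1125 CPM with a median of 17.2, against medians of 6.51 at rest, 5.84 after 1 h of KCl, 2.32 in the 7 h control and 7.78 in KO. Of the members, 98 lay between 5 and 10 CPM and 31 reached 100 CPM, and the 10 most abundant held 33.0% of the members' counts. Per transcript length the medians were 8.79 TPM (the deposited length-corrected abundance) after 6 h of KCl, 3.24 at rest and 1.21 in the 7 h control. The median length was 3446 bases (324 to 101674), beside 3160 bases for all transcripts with at least 5 CPM after 6 h of KCl.

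The member with the most counts was ENSMUST00000191428.6, a transcript of 14814 bases. Its 6 h KCl libraries gave 1164, 1212 and 1000.1 CPM, against 217, 232, 187 and 225 CPM in the 7 h controls. At rest in WT it gave 189, 201, 184, 233 and 186 CPM and after 1 h of KCl 243, 207, 179, 287 and 197 CPM. All 3 late KCl libraries therefore stood apart from the 14 other WT libraries, which overlapped each other. Its mean was 5.23 times the 7 h control and 5.66 times rest.

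Per length it was not the leading member. The transcript of 2317 bases had the highest level, with a mean of 359 TPM after 6 h of KCl, followed by the transcript of 4000 bases with 224 TPM and that of 4095 bases with 187 TPM, while the transcript of 14814 bases had 104 TPM. The member of 2317 bases behaved in another way in the silenced cultures: it gave 93.5, 53.4, 130 and 72.6 CPM at rest beside 245 CPM in library 4-3, but 24.95, 10.9, 47.5 and 52.2 CPM after 7 h of silencing. After 1 h of KCl it gave 140, 116, 144, 280 and 106 CPM, and after 6 h 590, 662 and 432 CPM. The control was thus below every resting library, and the fold over the control (16.6) exceeded the fold over rest (4.72).

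Other abundant members differed in the same respect. The transcript of 5215 bases gave 362, 347 and 332 CPM after 6 h of KCl, against 57.2, 46.1, 74.8 and 72.4 CPM in the control, which overlapped the resting libraries other than 4-3 (58.8 to 75.4 CPM). That of 9101 bases gave 292, 260 and 251 CPM, against 56.2 to 71.3 CPM in the control and 43.0 to 63.9 CPM at rest. That of 21704 bases gave 219, 195 and 188 CPM, against 29.6 to 39.8 CPM in the control. The controls of this last member lay above all its resting libraries (5.57 to 28.6 CPM), in contrast to the member of 2317 bases.

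This difference between the 2 baselines ran through the members. The 7 h control was at or below 0.5 times rest for 164 of the 305 members (53.8%), against 13.0% of the transcripts with at least 5 CPM after 6 h of KCl, and at or below 0.25 times rest for 96. The median ratio of 7 h control to rest was 0.452 for the members and 1.18 for the transcripts with at least 5 CPM. In 92 members every 7 h control lay below every resting library (20.4% of the same background), and in 5 every control lay above (35.0% of the background). The choice of a low control favours such members, so these counts describe the selection and were not tested.

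Relative to rest, 218 members were at least 2 times higher after 6 h of KCl (35.2% of the background were), 57 were between 1 and 2 times the resting level, and 30 were below it. All 30 below rest had a 7 h control at or under 0.25 times rest, with a median of 0.110, and all 57 in the middle class had a control at or under 0.5 times rest. For these 87 transcripts the label of late induction holds against the silenced control of the same age and not, or hardly, against the neurons at rest. Every 6 h KCl library lay above every resting library for 190 members (background 37.9%), and above every library of the other 4 groups, KO included, for 140 (background 7.88%).

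**Figure D2:**
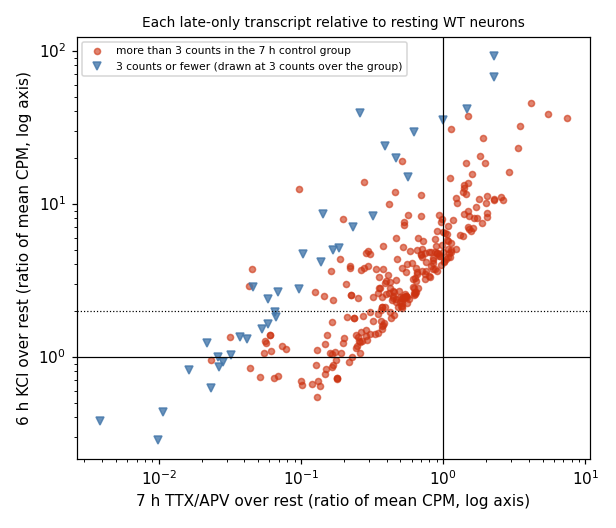
Each of the 305 members by its mean in the 7 h control (horizontal) and after 6 h of KCl (vertical), both as ratios to mean WT rest on log axes; triangles mark members with 3 counts or fewer over the 4 controls, drawn at 3 counts, and the dotted line is 2 times rest. The 30 members below the solid horizontal line were under their resting level after 6 h of KCl, and all lie far to the left, at a control of at most 0.25 times rest.

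The scaling bears on this comparison. The members were chosen on CPM, and with library sizes adjusted by TMM (trimmed mean of M-values, which aligns the bulk of transcripts) 50 members lay below rest after 6 h of KCl, 184 were at least 2 times rest, and 216 had a control at or under 0.5 times rest. The median log2 fold change of 7 h control over rest was -1.59 for the 239 members tested with TMM and -1.17 with total counts, where the median of all transcripts moved from -0.03 to 0.37. Members thus lay about as far under the bulk of transcripts with either scaling.

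The transcript of 4413 bases is an abundant case of a fallen control. It gave 93.4, 68.7, 125, 216 and 106 CPM at rest, and 24.6, 16.2, 22.0 and 18.1 CPM in the 7 h control. After 6 h of KCl it gave 189, 250 and 179 CPM, so that 1 resting library, 4-3, lay inside the range of the KCl libraries. Its mean was 10.2 times the control but 1.69 times rest.

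The transcript of 2374 bases had a larger contrast between the baselines. It gave 56.8, 39.6, 64.7, 43.6 and 48.5 CPM at rest and was listed at 0 in all 4 controls, while after 6 h of KCl it gave 4.23, 50.04 and 3.55 CPM. Against 3 counts over the control group (0.195 CPM) its mean of 19.3 CPM was at least 98.9-fold higher, but it was 0.381 times rest. Only the library coded 4-2 reached its resting range.

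Other members had like levels in both silenced WT groups and were higher than both after 6 h of KCl. In 61 members the control lay between 0.67 and 1.5 times rest and the 6 h KCl level was at least 4 times rest. The transcript of 14814 bases belongs to them, as do those of 4000 bases (means of 634 CPM after 6 h of KCl, 129 CPM in the control and 115 CPM at rest) and 3706 bases, the last chosen after its values were seen. The transcript of 3706 bases gave 122, 139 and 125 CPM after 6 h of KCl, against 16.7, 12.9, 13.7 and 13.8 CPM in the control and 10.3, 5.87, 9.91, 13.9 and 11.2 CPM at rest. Its KO libraries spanned 8.18 to 12.3 CPM, within the range of WT at rest.

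The ratio of 6 h KCl to 7 h control ran from 4.00 to at least 149 with a median of 6.30 (a control of 3 counts or fewer was set to 3 counts over the group). It was between 4 and 5 for 94 members, at least 10 for 91 and at least 20 for 55. The largest bound belonged to the transcript of 3639 bases, listed at 0 in all 4 controls, with 22.6, 57.5 and 7.21 CPM after 6 h of KCl. Next came that of 7355 bases, which gave 1.12, 0.779, 0 and 0.840 CPM in the controls and 86.8, 108 and 67.9 CPM after 6 h of KCl, a ratio of 128. Those of 3072 and 2402 bases had ratios of 81.7 and 68.1 on controls of 0.612 ± 1.22 and 0.717 ± 0.829 CPM (n = 4).

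Large ratios rested on few counts, and some on 1 library. The transcript of 100404 bases reached 35.3 CPM in the 6 h KCl library coded 4-2 and was near 0 in the other two. In all, 36 members had 3 counts or fewer over the 4 controls, 31 of these with under 0.5 counts in each control, and 13 were under 0.5 counts in at least 1 library with 6 h of KCl. The deposited counts divide reads among transcripts of one gene that share sequence, so a transcript at 0 beside libraries with many counts can reflect how reads were assigned, which was not tested.

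**Figure D3:**
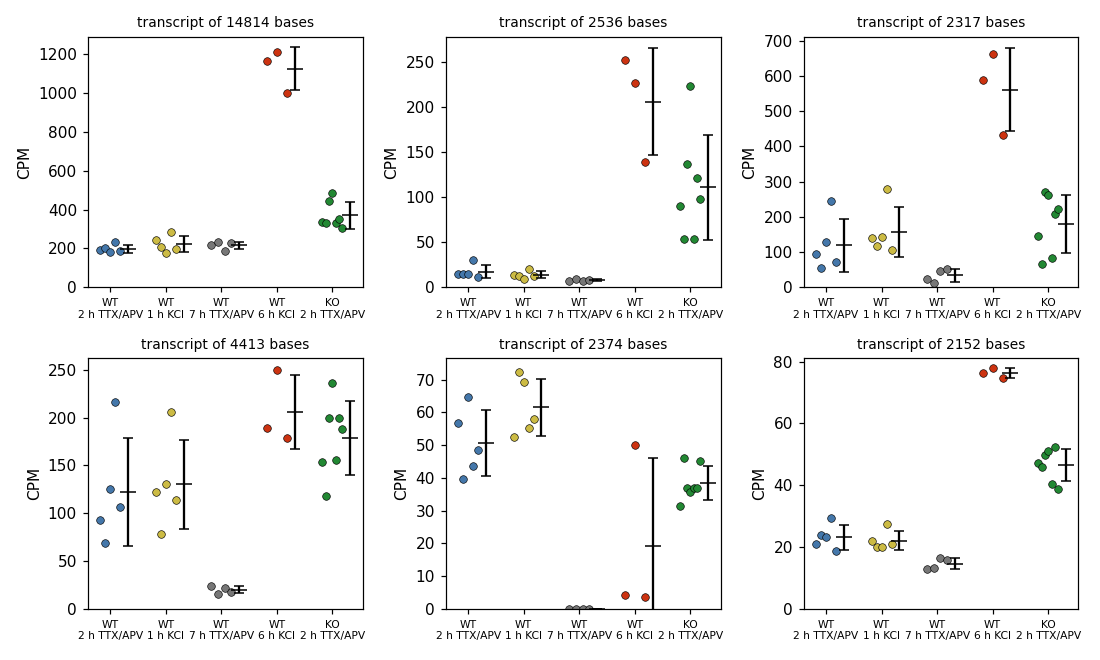
CPM of 6 members in every library, by group, with the group mean and SD beside the points; the scale differs between panels. The members of 14814, 2536 and 2152 bases are high in the 6 h KCl and KO groups, those of 2317 and 4413 bases are below all resting libraries in the 7 h control, and that of 2374 bases is at 0 in all 4 controls with 1 high KCl library.

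A count of 0.5 or more in every library was found for 117 members, and 188 (61.6%) were under that in at least 1 library outside the 6 h KCl group, against 15.9% of transcripts with at least 5 CPM after 6 h of KCl. The 117 steadily detected members had a median of 33.6 CPM after 6 h of KCl, a median ratio to the control of 4.90 and a median ratio to rest of 3.55. The 188 others had a median of 11.7 CPM and medians of 8.59 and 2.95 for these ratios. Set against the control with the same code, 104 members were at least 4 times higher in all 3 of the codes 3-7, 4-2 and 4-4, and 257 at least 2 times.

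In the fit of 6 h KCl against the 7 h control, 280 members had enough counts to be tested and 177 passed an adjusted p of 0.05 (edgeR quasi-likelihood test, Benjamini-Hochberg over 33196 transcripts), beside 8.46% of all transcripts that passed upward and 6.88% downward. Their median log2 fold change was 2.74. The rule used this contrast, so the count describes the choice and nothing is read from it. The median log2 fold change of 6 h KCl over rest, in 301 members with enough counts, was 1.49. It too describes the choice, since both groups enter the rule.

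At 1 h the members were limited to under 1.5 times rest by choice. Their median ratio was 1.00, the same as for the 20996 transcripts with at least 5 CPM after 6 h of KCl. The ratio lay below 0.67 for 49 members and below 1 for 152, and the shares of all transcripts below these values were not computed. The transcript of 813 bases, singled out after its values were seen, was far lower after 1 h than at rest. It gave 19.8, 11.3, 14.9, 14.7 and 13.6 CPM at rest and 1.22 CPM in one 1 h library and 0 in the other four. It was also low in the 7 h control (0.848 ± 1.26 CPM, n = 4) and was at 18.3 ± 3.24 CPM (n = 3) after 6 h of KCl, near its resting mean of 14.9 ± 3.10 CPM (n = 5).

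Values close to the limits show how narrow the choice was. The members nearest the level limit had 5.03, 5.08 and 5.16 CPM after 6 h of KCl, and 451 transcripts failed on the level alone, the nearest with 4.96, 4.85 and 4.83 CPM. The nearest fold changes were 4.00, 4.01 and 4.02 inside and 3.98, 3.98 and 3.96 outside, where 2519 transcripts failed on the fold alone. At the 1 h limit the nearest ratios were 1.497, 1.49 and 1.48 inside and 1.503, 1.51 and 1.51 outside. The smallest gaps between the lowest KCl and the highest control library were near 0 CPM, in members with almost no counts in one of the KCl libraries.

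KO against WT at rest is the one comparison with libraries the rule did not use, although the 5 WT resting libraries enter the rule through the 1 h limit. It asks whether transcripts that are high late in KCl already differ in silenced neurons without ACTL6B. Of the 305 members, 258 had enough counts to be tested, and 14 of them (5.43%, 13 distinct profiles) were higher in KO, against 1.30% of all 32904 transcripts tested and 1.59% of those with at least 5 CPM after 6 h of KCl (edgeR quasi-likelihood test, adjusted p under 0.05). None was called lower by edgeR (background 1.63%, and 2.45% of those with at least 5 CPM after 6 h of KCl). At an unadjusted p under 0.05, 55 members were higher (21.3%, background 7.36%) and 5 lower (1.94%, background 7.20%). DESeq2 called 28 of 304 higher (9.21%, background 1.10% of 87634 transcripts with a fold change) and 1 lower (background 1.17%). The DESeq2 background holds every transcript with any count, also those of too few counts for the edgeR test. For the unadjusted and the DESeq2 counts no background limited to transcripts with at least 5 CPM was computed, so these are not matched to the members in level. The median log2 fold change of KO over WT was 0.25 for the members and 0.01 for all transcripts, and 178 members (69.0%) lay above 0, against 50.8%.

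**Figure D4:**
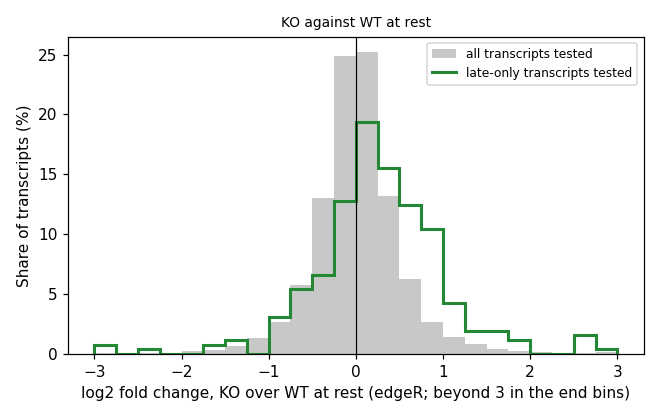
Share of transcripts (percent) by log2 fold change of KO over WT at rest, for the 258 members tested (line) and all 32904 transcripts tested (grey); values beyond 3 are placed in the end bins. The members' median is 0.25 and that of all transcripts 0.01.

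The count of 14 changed when any single library was left out. It fell to 6, 7, 7 and 9 without the WT libraries 3-4, 3-7, 4-2 and 4-4, and it was 19 without WT 4-3. It fell to 7, 9 and 6 without the KO libraries 3-2, 3-3 and 4-7, and was 10, 16, 12 and 10 without KO 1-1, 2-3, 3-5 and 4-8. The count was 7 without the filter on low counts. With 1 library left out the members' median log2 fold change stayed between 0.21 and 0.31. The share of all transcripts called in these fits is not given here. Within libraries whose code begins with 3 (3 KO, 2 WT), the members' median log2(CPM + 0.5) was 0.33 higher in KO, and within those beginning with 4 (2 KO, 3 WT) it was 0.29 higher. The labels do not say what the first number of a code stands for, and codes beginning with 1 and 2 occur in KO only.

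By class, most calls in KO fell on members that were also well above rest after 6 h of KCl, as were most of the 258 members tested. Of the 174 tested members at least 2 times above rest after 6 h of KCl, 13 were called higher in KO, with a median log2 fold change of 0.34. Of the 84 tested below that, 1 was called higher, with a median of 0.10, and of the 30 below rest none was, with a median of 0.03. Over all transcripts tested 1.30% were called higher, and no share of other transcripts in the same classes was computed. The low counts in the last classes are therefore not read as a trait of these members. The steadily detected members gave 10 calls among 109 tested and a median of 0.37, and the others 4 among 149 and a median of 0.14. That split used the counts of every library, so a member near 0 in a KO library falls among the others. It is thus partly fixed by the KO values. The steadily detected members also had higher levels after 6 h of KCl (a median of 33.6 CPM against 11.7 CPM). Both the class by level and the KO fold change are taken against the same WT resting libraries, so a low resting value raises both, and the order of the first 3 medians is partly fixed by that. Differences between the classes were not tested.

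The largest difference was in ENSMUST00000071782.7, a transcript of 2536 bases. It gave 15.0, 14.6, 15.2, 29.8 and 11.9 CPM in WT at rest, with 4-3 again the highest, and 53.2 to 223 CPM in KO with a median of 97.6. The groups did not overlap, and the log2 fold change was 2.68 (SE 0.40, edgeR adjusted p = 0.00504, range 6.52e-11 to 0.023 over 18 alternatives). After 6 h of KCl the WT libraries gave 252, 227 and 139 CPM, against 7.21, 9.60, 7.33 and 7.56 CPM in the 7 h control and 9.56 to 20.3 CPM after 1 h. The KO mean at rest of 111 ± 58.5 CPM (n = 7) was 53.9% of the WT mean after 6 h of KCl.

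The transcript of 2152 bases had the smallest adjusted p among the members. WT at rest gave 20.9, 24.04, 23.2, 29.4 and 18.7 CPM and KO 39.0 to 52.4 CPM with a median of 47.2, again without overlap. Its log2 fold change was 1.00 (SE 0.124, edgeR adjusted p = 0.00167, 0.0143 at most over the alternatives). It gave 76.3, 77.8 and 74.7 CPM after 6 h of KCl, so KO at rest lay between WT at rest and WT after late KCl.

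The most abundant member, of 14814 bases, gave 306 to 487 CPM in KO with a median of 335, above all 5 WT resting libraries. Its log2 fold change was 0.90 (SE 0.123, edgeR adjusted p = 0.00286, 0.015 at most over the alternatives), and its KO mean was 32.9% of the 6 h KCl mean. The transcripts of 6567 and 5823 bases, with log2 fold changes of 1.62 (SE 0.28) and 1.32 (SE 0.23) and an edgeR adjusted p of 0.0101 each, likewise passed under every alternative (0.0476 and 0.0398 at most). These 5 were the only members of the 14 called in all 18 alternatives.

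The 9 other called members had log2 fold changes between 0.67 and 2.65 and each lost its call in at least 1 alternative. The pair of 7155 bases, with identical counts, had 1.81, 2.90, 4.27, 3.77 and 0 CPM in WT and 9.10 to 28.5 CPM in KO, and lost its call in 13 of the 18 (2.65, SE 0.625, edgeR adjusted p = 0.0437, range 0.000132 to 0.119). That of 2402 bases (1.70) lost it in 12, that of 6287 bases (0.67) in 10, that of 3212 bases (1.10) in 9, that of 13938 bases (1.23) in 7, that of 4368 bases (1.97) in 6, and that of 4027 bases (1.14) in 5. That of 1314 bases (1.28) lost it in 1, the fit of all RNA libraries together, with an edgeR adjusted p of 0.256 (range 1.39e-06 to 0.256). In 12 of the 14 every KO library lay above every WT library, and those of 3212 and 6287 bases overlapped, with 6 and 5 of 7 KO libraries above the highest WT library.

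**Figure D5:**
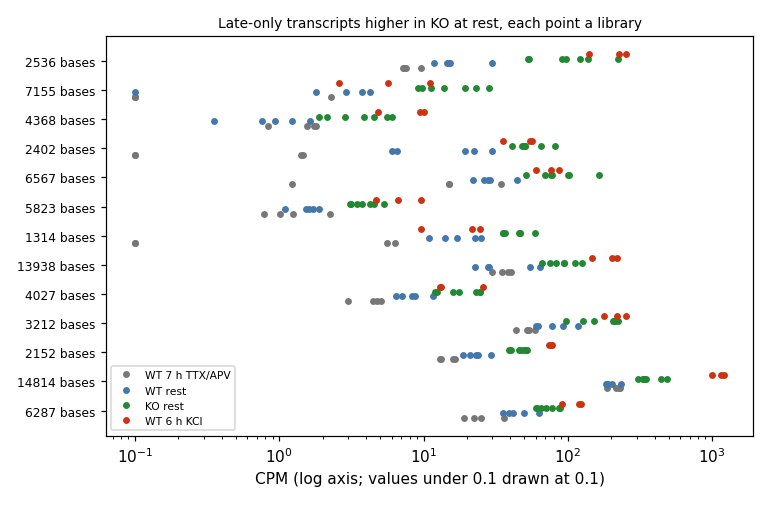
CPM on a log axis in every library of 4 groups for the 13 distinct members called higher in KO at rest, ordered by log2 fold change; values under 0.1 are drawn at 0.1. KO libraries lie to the right of all WT resting libraries except for the members of 3212 and 6287 bases, and the KO mean is above the 6 h KCl mean in those of 7155, 2402, 6567, 1314 and 4027 bases.

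Set against the late KCl level, KO at rest did not reach it for most members. The KO mean had a median of 34.3% of the WT mean after 6 h of KCl, beside 30.2% for WT at rest. It was at least 50% for 117 members in KO and 87 in WT at rest, and above 100% for 42 and 30. In KO, 24 of these 42 were members that lay below rest after 6 h of KCl. Among the called members it was above 100% for those of 7155 bases (255%), 1314 bases (235%), 6567 bases (122%), 2402 bases (113%) and 4027 bases (107%). The transcript of 1314 bases was called higher in KO, while its WT level after 6 h of KCl was 1.04 times rest.

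Every KO library lay above every WT resting library for 16 members (5.25%, background 1.67%), and below for 1 (0.328%, background 2.95%). That 1 member, of 2940 bases and singled out for this after its values were seen, gave 54.3, 76.6, 64.6, 62.5 and 76.2 CPM in WT and in KO 36.0, 7.77 and 21.5 CPM in 3 libraries and near 0 in the other four. Its log2 fold change was -2.80 (SE 1.11, edgeR adjusted p = 0.249), so it was not called. It was also near 0 in 3 of the 4 controls and gave 54.1, 80.3 and 55.8 CPM after 6 h of KCl, which overlapped its values at rest.

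Another 246 transcripts met the conditions at 6 h but not the limit at 1 h. In KO against WT at rest, 8 of the 129 tested were higher (6.20%) and none lower with edgeR, with a median log2 fold change of 0.55 and 114 above 0, beside 14 of 258 and 0.25 for the late-only members. The 1 h limit favours high WT resting values among the late-only members and low ones among the others, so the 2 medians are displaced in opposite directions, and the difference was not tested.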

How the data were processed

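RNA-seq of 24 libraries was analysed; the 12 ATAC-seq libraries were not analysed here, because no annotation linking them to transcripts was used. Per the file headers, the authors deposited estimated counts per transcript, transcript lengths in bases (the other values used), and TPM. The submitters' processing notes name kallisto 0.44.0 and Trim Galore. The genome build behind the transcripts: not given in the sources used here. CPM was computed from the deposited estimated counts and each library's sum. For tests they were rounded and fitted per transcript with edgeR 4.0.16 in R 4.3.3 (TMM, filterByExpr, robust quasi-likelihood F-test), on the 2 groups compared, with Benjamini-Hochberg adjustment over all transcripts tested and a threshold of 0.05; DESeq2 1.42.0 was an alternative. The tests were checked on simulated data with the same spread for every transcript and with changes placed only in transcripts of many counts. The check does not cover transcripts of few counts or a library that differs from its group. Estimated counts are not counts of independent molecules. For the fold over the 7 h control, a control group with 3 counts or fewer was given 3 counts. For the fold over the control of the same code, each control library was given at least 3 counts. The rule leaves out 3 transcripts, which are not reported here. The design foresaw gene names and lists; 0 identifiers matched, so no list, marker or sequence is given. Members described singly were the 10 most abundant after 6 h of KCl, the 10 with the largest fold over the control, those called in KO and those nearest each limit; others are named as chosen later. The members and all lists were chosen with earlier results of these data known. P-values weigh the difference between 2 groups against the spread between their libraries.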

Additional observations from a re-analysis of the deposited data

Results flagged for a closer look

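Among the members described singly, 105 groups of 4 to 7 libraries were checked for a library far from the others, and 18 were found. The limit used passes about 1 in 20 groups of independent, normally spread values. That rate is no benchmark here, since groups share libraries and some were at 0 in all libraries but 1. In each the highest or lowest library stood off by more than Dixon's limit. Of the 18, 8 were library 4-3. At rest it gave 145 CPM for the transcript of 4000 bases (others 102 to 111), 139 CPM for that of 5215 bases (58.8 to 75.4), 29.8 CPM for that of 2536 bases (11.9 to 15.2) and 17.6 CPM for that of 7355 bases (2.88 to 5.88). After 1 h of KCl it gave 280 CPM for the transcript of 2317 bases (106 to 144), 108 CPM for that of 3212 bases (58.4 to 70.0), 14.5 CPM for that of 7355 bases (2.88 to 5.02) and 4.51 CPM for that of 2596 bases (0.243 to 0.677).

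The KO library 2-3 was high at 114 CPM for the transcript of 9101 bases (46.7 to 75.3) and at 52.4 CPM for that of 21704 bases (34.3 to 39.7), and low at 0.298 CPM for that of 1194 bases (5.67 to 9.41). KO 3-3 was high at 19.4 CPM for the transcript of 3649 bases (0 to 7.69). In WT at rest, 4-2 was low at 5.57 CPM for that of 21704 bases (22.9 to 28.6), and 4-4 high at 6.88 CPM for that of 100404 bases, where the others were near 0. In the 7 h control, 4-4 gave 141 CPM for the transcript of 4000 bases (124 to 126), 3-7 gave 9.60 CPM for that of 2536 bases (7.21 to 7.56), 3-4 gave 2.45 CPM for that of 3072 bases and 4-2 gave 2.28 CPM for the pair of 7155 bases, where the others were at 0.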

How the results depend on the processing

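The number of members was 305; it was 513 with a 3-fold and 160 with a 6-fold limit over the control, 416 on TMM-adjusted sizes (284 shared with the 305), 308 on TPM (205 shared), and 273 to 383 with 1 library left out, where 133 stayed members every time. In KO against WT, the median log2 fold change stayed within the spread between libraries in all 18 alternatives. The count higher in KO was 28 with DESeq2, 7 with no filter and 6 to 19 with 1 library left out; the count lower was 1 with DESeq2 and 2 with the first number of the code as a covariate. The cause was not tested. For 6 h of KCl against the control, the median of 2.74 was 2.54 with total counts, 2.87 with DESeq2 and 2.69 to 2.87 with 1 library left out (highest without KCl 4-4). With the code as a replicate block it was 3.04, and 63 members passed in place of 177. Against rest the median of 1.49 was 1.70 with total counts and 1.76 with the replicate block. The median of 7 h control over rest was -1.17 with total counts, and that of 1 h of KCl over rest was 0.04, and -0.027 (without 1 h 4-3) to 0.16 (without WT rest 4-3) with 1 library left out. Over all transcripts with enough counts, deviations of same-coded libraries correlated at -0.0336 to 0.0737, all under 0.1, so the codes were not used to pair libraries. The correlations were not computed for the members alone. Among those, code 4-3 had the highest summed share of the WT libraries both at rest and after 1 h of KCl. The class counts on other scalings, the split by level and detection, and the share without 4-3 were added after seeing the data. With 3 to 7 libraries a group and the late libraries the shallowest, transcripts of few counts are imprecise.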
